A study of Homo sapiens with 9 samples.

Results

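Immediate early genes are transcribed within minutes of a growth factor signal, without the need for new protein synthesis, and most of them are switched off again when the signal ends. In the ERK pathway, MEK1 phosphorylates ERK, and ERK in turn phosphorylates the partners of the serum response factor SRF, which bind with SRF at CArG boxes in the control regions of many such genes. Factors of the CREB family and of AP-1 act on others. The 8 genes described here are ARC, whose product is known for its role at the synapses of neurons, the orphan nuclear receptors NR4A1, NR4A2 and NR4A3, the immediate early response genes IER2, IER3 and IER5, and SRF itself, which is both a regulator of this class and a member of it.

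The genes were taken by the gene name that the array design gives to a probe, apart from control spots. They were carried by 11 of the 50598 probes on the array, and 7 of the 8 genes were among the 19280 genes that could be tested. NR4A1 was not tested, since its probe was well above background on 1 array in all.

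HEK293 cells, a line derived from human embryonic kidney, had been made to express HA-tagged MEK1 stably in 1 of 3 forms: the wild-type protein (WT), F53S, which has been found in RASopathies, or K57N, which has been found in cancer. All 3 lines were made with the same retroviral expression plasmid and selected with puromycin, so the WT line also carried additional MEK1, and parental cells were not part of the comparison. The cell line label reads HEK293 for all 9 samples and so do the titles, but the source names of WT replicates 2 and 3 read HEK294 and HEK295. RNA was taken under steady-state conditions, and no added growth factor is described for these samples. The cells were maintained in medium with fetal bovine serum, and no withdrawal of serum is described. Each form was represented by 1 stable line with 3 arrays from separate experiments, so the spread is that between experiments, and a difference that is particular to a line cannot be told apart from an effect of the mutation. The question was which of these early genes stand above the WT level in cells whose MEK1 is active over a long time.

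Replicate 1 of each line was hybridized on slide 1, and replicates 2 and 3 on slide 2. The signal at the 75th percentile was between 245 and 376.25 on slide 1 and between 695 and 821 on slide 2, and between 23714 and 29324 probes were well above background on an array. Levels are given as log2 of the signal relative to the 75th percentile of the same array, with 0 at this percentile, and they are compared between lines but not between genes. Because the slides differed, each comparison was also fitted with the slide as a term. Of 8 genes that mark HEK293 cells, 7 were well above background on all 9 arrays, NEFM being so on 6. Of 5 fibroblast markers, 1 was well above background on every array and COL1A2, DCN and PDGFRB on none. MAP2K1, which encodes MEK1, was measured at 2.36, 2.34 and 2.42 in WT cells, at 2.50, 2.39 and 2.46 in F53S cells and at 2.92, 2.81 and 2.82 in K57N cells. The K57N difference from WT was 0.48 on the log2 scale (limma, adjusted p = 0.135, or 0.00758 with the slide as a term), and whether the probe reads the introduced copy as well as the cell's own gene was not tested.

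A RefSeq promoter sequence of GRCh38.p14 was matched for 5 of the 8 genes. None was matched for ARC, NR4A2 or IER3, so the promoters of these genes were not searched. The 250 bases before the start of transcription of SRF, NR4A3, IER2 and IER5 are shown because these genes differ in how they behaved in K57N cells. They are written 5′ to 3′ on the plus strand, which is the strand of all 4 genes. Capitals mark a CArG box, a CC and a GG around exactly 6 bases that are A or T, or the letters TGACG on either strand, the core of the element bound by CREB.
SRF, chr6:43171019-43171268: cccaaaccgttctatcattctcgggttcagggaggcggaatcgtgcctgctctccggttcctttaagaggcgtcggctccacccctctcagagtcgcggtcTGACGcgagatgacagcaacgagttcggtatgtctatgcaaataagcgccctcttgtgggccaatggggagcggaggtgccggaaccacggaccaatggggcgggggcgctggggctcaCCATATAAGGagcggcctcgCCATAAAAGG
NR4A3, chr9:99821635-99821884: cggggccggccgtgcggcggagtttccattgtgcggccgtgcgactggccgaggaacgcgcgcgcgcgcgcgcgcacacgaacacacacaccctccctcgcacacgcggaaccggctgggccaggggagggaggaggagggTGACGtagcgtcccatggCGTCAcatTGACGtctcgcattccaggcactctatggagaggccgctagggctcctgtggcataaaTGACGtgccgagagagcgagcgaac
IER2, chr19:13150161-13150410: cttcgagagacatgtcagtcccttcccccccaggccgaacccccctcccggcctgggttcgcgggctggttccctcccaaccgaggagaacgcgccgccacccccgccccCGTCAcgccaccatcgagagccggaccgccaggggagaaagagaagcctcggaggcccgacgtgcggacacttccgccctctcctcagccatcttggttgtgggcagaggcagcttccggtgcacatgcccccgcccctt
IER5, chr1:181088450-181088699: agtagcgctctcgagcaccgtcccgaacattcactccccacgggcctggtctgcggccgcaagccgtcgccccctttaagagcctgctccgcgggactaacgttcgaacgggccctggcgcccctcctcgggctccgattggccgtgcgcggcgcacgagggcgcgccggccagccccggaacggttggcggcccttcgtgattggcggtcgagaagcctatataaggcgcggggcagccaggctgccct

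The SRF sequence held 2 CArG boxes, which began 30 and 10 bases before the start, and 1.16% of the 35116 RefSeq promoter windows of this length hold one on either strand. No CArG box lay in these 250 bases of NR4A3, IER2 or IER5, nor in either NR4A1 window or the second SRF window. The IER5 window holds a CC and a GG around a run of A and T that is longer by 1 base, which was not counted. TGACG occurred 4 times in the NR4A3 window, beginning 109, 91, 83 and 25 bases before the start, once in that of IER2 and once in that of SRF, and was not found in that of IER5; 21.2% of all windows hold it. The longer palindrome TGACGTCA, which contains TGACG on both strands and occurs in 1.65% of all windows, was in none of the 7 windows of these genes, including the second windows of SRF and NR4A1. The GC box GGGCGG occurred 3 times in IER2, once in SRF and once in the second NR4A1 window, against 42.6% of all windows with at least 1 copy. TGANTCA, the motif of AP-1, and TATAAA were not found in the 7 windows and are held by 6.57% and 10.7% of all windows. These matches describe letters within short windows and do not show that a factor was bound.

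In K57N cells, ARC, IER2 and IER3 rose above WT, by 23.0-, 6.13- and 4.93-fold, while IER5, NR4A2, NR4A3 and SRF did not pass the test. A gene was called where it differed more than 2-fold with an adjusted p below 0.05 in limma, with p adjusted over all probes tested. Thus 3 of the 7 tested genes were called higher, against 1.52% of all tested genes, and 0 were called lower, against 0.742%. The same 3 genes were called with the slide as a term, where 2.57% of all genes were called higher. The methods' t-test with adjusted p called IER3 alone, with an adjusted p of 0.0996 for ARC and 0.0955 for IER2 at the same differences. Over the 7 tested genes, the median log2 difference was 0.84, and over all tested genes it was −0.06. In F53S cells, 0 of the 7 were called, with 0% of all genes called higher by the fit without the slide and 0% by the fit with it.

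**Figure D1:**
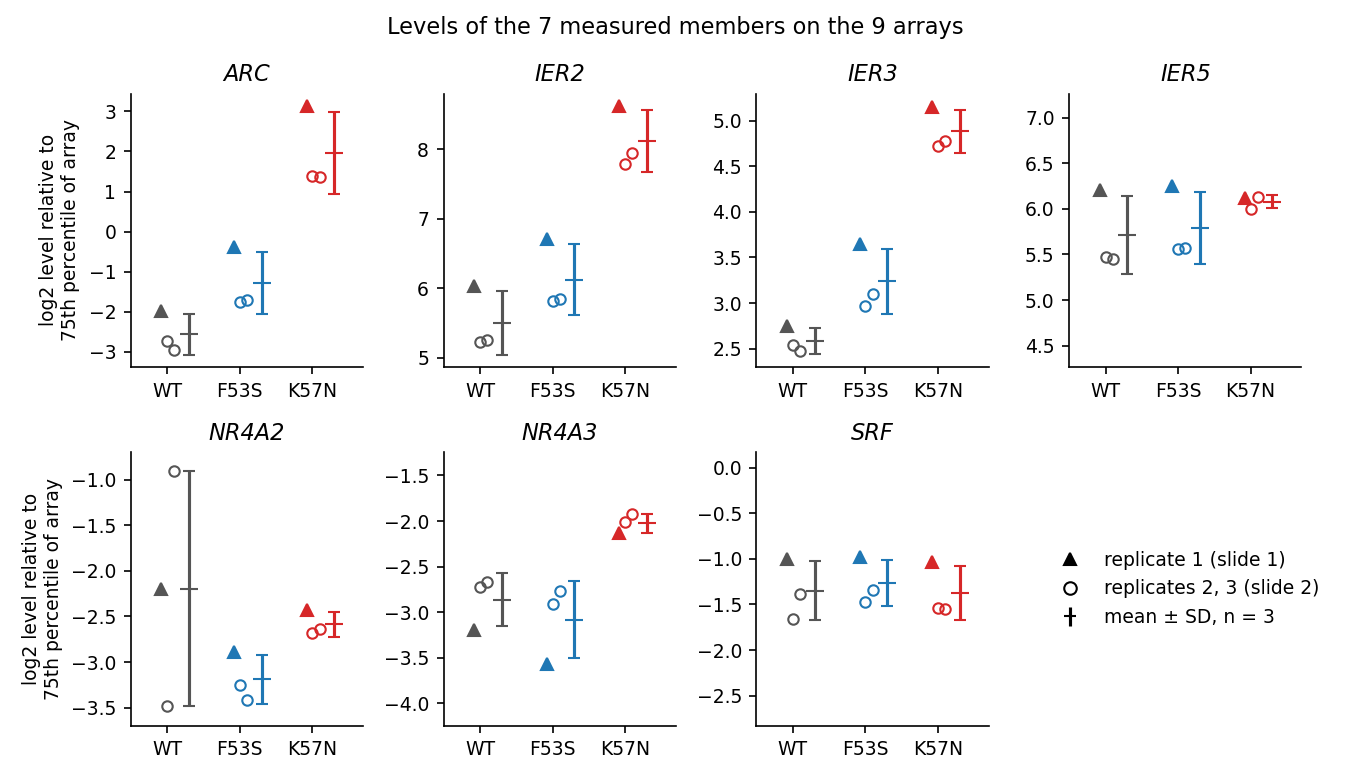
Levels of the 7 tested genes on each array (log2 relative to the 75th percentile of the array, vertical axis, with its own range for each gene) in WT, F53S and K57N cells. Triangles are replicate 1 on slide 1, open circles are replicates 2 and 3 on slide 2, and bars are the mean ± SD of 3 arrays. ARC, IER2 and IER3 stood highest in K57N cells on every array, and the 3 lines overlapped for SRF.

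ARC encodes a cytoskeleton-associated protein that is made at active synapses, and its probe lies at chr8:143692579-143692638 on hg19. The ARC level was −1.98, −2.74 and −2.96 on the 3 WT arrays, −0.38, −1.76 and −1.70 on the F53S arrays and 3.14, 1.38 and 1.37 on the K57N arrays. The 3 lines did not overlap, with WT lowest and K57N highest, and replicate 1 was the highest array of each line. The mean was −2.56 ± 0.51 in WT cells, −1.28 ± 0.78 in F53S cells and 1.96 ± 1.02 in K57N cells (SD, n = 3 arrays). K57N exceeded WT by 4.52 on the log2 scale (SE 0.57, limma, adjusted p = 0.00541, with the slide as a term SE 0.18 and adjusted p = 8.79e-06). Within slide 1 this difference was 5.12, and within slide 2 it was 4.22. ARC was thus the gene with the 19th highest difference among 19280. Over the alternatives and with 1 array left out, the K57N difference from WT ranged from 3.78 to 4.82. The lowest value came with normexp background correction, and without K57N replicate 1 it was 3.93. F53S exceeded WT by 1.28 (95% confidence interval −0.01 to 2.58, limma, adjusted p = 1, with the slide as a term 0.87 to 1.69 and adjusted p = 0.146), in 3 of 3 arrays paired by number, with 1.60 within slide 1 and 1.12 within slide 2.

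IER2 and IER3 are short early response genes: IER2 encodes a nuclear protein, and IER3 encodes a protein known for its part in cell survival and in the regulation of ERK itself. The IER2 probe, at chr19:13265586-13265645, gave 6.03, 5.22 and 5.25 in WT cells, 6.71, 5.81 and 5.85 in F53S cells and 8.62, 7.79 and 7.94 in K57N cells. All K57N arrays lay above the others, and the F53S range overlapped that of WT, although each F53S array was above the WT array of its own number. K57N exceeded WT by 2.62 (SE 0.35, limma, adjusted p = 0.00729, or 4.05e-06 with the slide as a term), with 2.59 within slide 1 and 2.63 within slide 2. The F53S difference was 0.62 (95% confidence interval −0.18 to 1.42, limma, adjusted p = 1, or 0.146 with the slide as a term).

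IER3 was read by a pair of probes on chr6, at 30711312-30711371 and at 30711576-30711635, both on hg19. The brighter probe gave 2.74, 2.54 and 2.47 in WT cells, 3.64, 2.97 and 3.10 in F53S cells and 5.15, 4.72 and 4.78 in K57N cells. Neither probe showed an overlap between any of the 3 lines, and the order was WT, F53S, K57N with both. K57N exceeded WT by 2.30 (SE 0.22, limma, adjusted p = 0.00163), which was 2.41 within slide 1 and 2.25 within slide 2, and the second probe gave 2.38 (SE 0.16, limma, adjusted p = 0.000283). F53S exceeded WT by 0.65 with the brighter probe (95% confidence interval 0.15 to 1.16, limma, unadjusted p = 0.0177, adjusted p = 1) and by 0.69 with the other (adjusted p = 1). With the slide as a term, these adjusted p-values were 0.177 and 0.148.

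IER5, a relative of IER2 known for its action on the heat shock factor HSF1, was read at chr1:181059835-181059894. Its level was 6.20, 5.48 and 5.45 in WT cells, 6.25, 5.56 and 5.57 in F53S cells and 6.12, 5.99 and 6.13 in K57N cells. The WT and F53S arrays of slide 1 stood above those of slide 2, the 3 K57N arrays were close together, and all 3 lines overlapped. K57N differed from WT by 0.37 (95% confidence interval −0.24 to 0.98, limma, adjusted p = 0.711), with −0.09 within slide 1 and 0.60 within slide 2. With the slide as a term the adjusted p was 0.135, and with the 6 arrays of slide 2 alone it was 0.0118 at a difference below 2-fold. F53S differed from WT by 0.08 (95% confidence interval −0.53 to 0.69, limma, adjusted p = 1).

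The NR4A receptors bind DNA without a known ligand and are induced early by many stimuli. NR4A3 (NOR1) was read at chr9:102628985-102629044 and gave −3.19, −2.72 and −2.67 in WT cells, −3.57, −2.91 and −2.77 in F53S cells and −2.13, −2.02 and −1.93 in K57N cells. The K57N arrays were above all others, and WT and F53S overlapped. K57N differed from WT by 0.84, a 1.78-fold difference that was under the limit of 2-fold (SE 0.25, limma, adjusted p = 0.15, or 0.00475 with the slide as a term), with 1.06 within slide 1 and 0.72 within slide 2. F53S differed from WT by −0.22 (95% confidence interval −0.78 to 0.34, limma, adjusted p = 1). A second NR4A3 probe, for another transcript at chr9:102595751-102595810, stayed near background on all 9 arrays.

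NR4A2 (NURR1) was read by a pair of probes that gave K57N differences of opposite sign. The brighter one, at chr2:157182256-157182315, gave −2.20, −3.48 and −0.91 in WT cells, −2.89, −3.25 and −3.42 in F53S cells and −2.43, −2.68 and −2.64 in K57N cells. The WT arrays spread over a wider range than all the others together, with replicate 3 highest. The other probe, at chr2:157181727-157181786, gave −3.36, −3.56 and −3.74 in WT cells, −3.70, −3.65 and −3.62 in F53S cells and −2.55, −3.41 and −3.25 in K57N cells. Here WT replicate 3 was the lowest of the 9 arrays. K57N differed from WT by −0.39 with the first (SE 0.54, limma, adjusted p = 0.93) and by 0.48 with the second (SE 0.24, limma, adjusted p = 0.461), and without WT replicate 3 the first gave 0.26 (SE 0.38). Neither probe showed a call in any comparison, and the F53S differences from WT were −0.99 and −0.10 (limma, adjusted p = 1 for both). With 1 array left out, the F53S difference of the brighter probe ranged from −1.64 to −0.35.

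NR4A1 (NUR77), at chr12:52453226-52453285, was well above background on K57N replicate 1 alone, at −4.18. On the other 8 arrays, among them K57N replicates 2 and 3 at −7.32 and −7.44, it was not well above background, and no fold change is given.

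SRF encodes the factor that binds CArG boxes, and its probe, at chr6:43148285-43148344 on hg19, gave −1.01, −1.66 and −1.39 in WT cells, −0.98, −1.47 and −1.34 in F53S cells and −1.03, −1.54 and −1.55 in K57N cells. The 3 lines overlapped, and replicate 1 was highest in each. K57N differed from WT by −0.02 (95% confidence interval −0.57 to 0.53, limma, adjusted p = 0.993), and with the slide as a term the interval was −0.25 to 0.21. F53S differed from WT by 0.08 (95% confidence interval −0.47 to 0.63, limma, adjusted p = 1). SRF, the gene with 2 CArG boxes in the window shown, thus stayed within 2-fold of WT by both intervals.

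**Figure D2:**
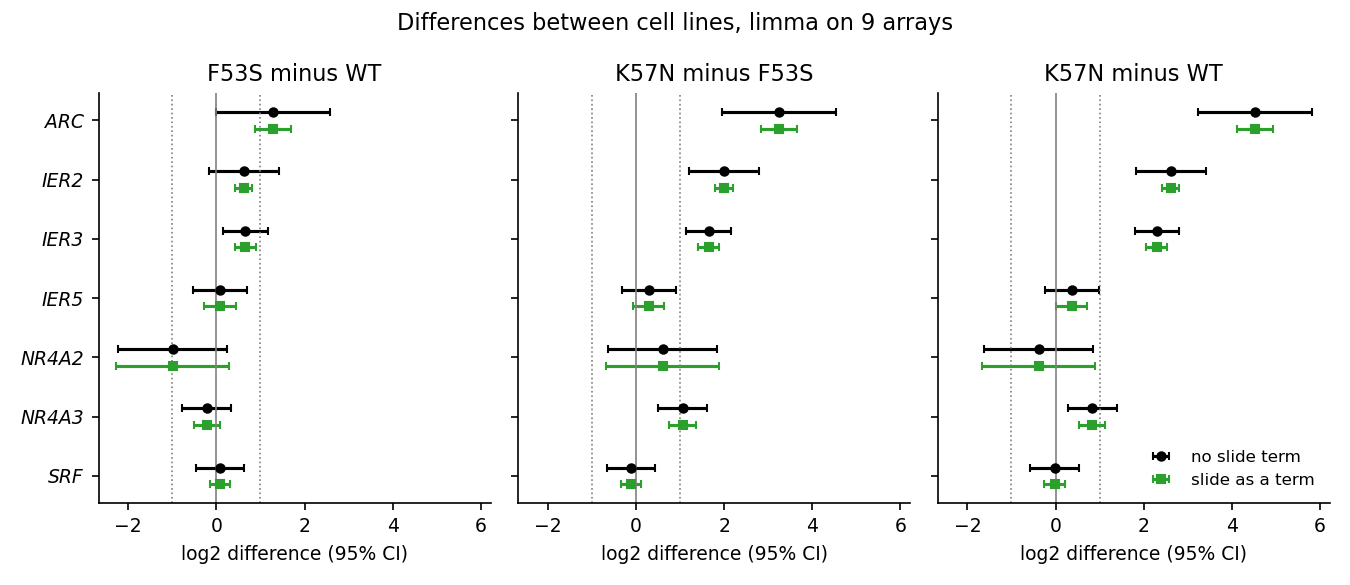
Log2 differences between the lines for the 7 tested genes with 95% confidence intervals, from limma on 9 arrays without the slide (black circles) and with the slide as a term (green squares). The solid line is 0 and the dotted lines are 2-fold. For ARC, IER2 and IER3 the K57N intervals against both other lines lie wholly above 2-fold, while for SRF the intervals lie within 2-fold in all 3 comparisons.

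K57N was also compared directly with F53S, to ask whether the mutants differed from each other in these genes. ARC, IER2 and IER3 were higher in K57N cells, by 9.46-, 3.99- and 3.13-fold (limma, adjusted p = 0.0374, 0.0374 and 0.0124). These 3 of 7 stood beside 0.96% of all genes called higher, and 0 of the 7 were called lower. With the slide as a term, NR4A3 was called as well, at 1.06 or 2.08-fold (limma, adjusted p = 0.00272, against 0.108 without it), so that 4 of 7 stood beside 1.89% of all genes. The numbers of the arrays paired the lines, and with the replicate number as a block NR4A3 was called in the same way (limma, adjusted p = 0.0072). Within slide 2 the NR4A3 difference was 0.87, under 2-fold, and within slide 1 it was 1.43. Without the slide as a term, the 3 calls depended on single arrays: 1 remained, that of IER3, without WT replicate 2 or without WT replicate 3, and 0 without F53S replicate 2, F53S replicate 3 or any 1 of the K57N arrays, where the differences of ARC, IER2 and IER3 were still at least 2.65, 1.74 and 1.51. With the 6 arrays of slide 2 alone, ARC, IER2 and IER3 were called.

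The lines were also compared by whether all 3 arrays of one lay above all 3 of another. K57N lay wholly above WT for ARC, IER2, IER3 and NR4A3, which is 4 of 7 against 10.3% of all genes. K57N lay wholly above F53S for these 4 and for NR4A2 by its brighter probe, which is 5 of 7 against 8.33%. F53S lay wholly above WT for ARC and IER3, which is 2 of 7 against 1.55%. No member was called in F53S cells by limma with adjusted p, and with p left unadjusted, at the same limits, the count was 0 without the slide and 1, ARC, with it. Of all 19280 tested genes, 40 were higher and 6 lower in F53S cells in this way without the slide, and 52 were higher and 10 lower with it.

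**Figure D3:**
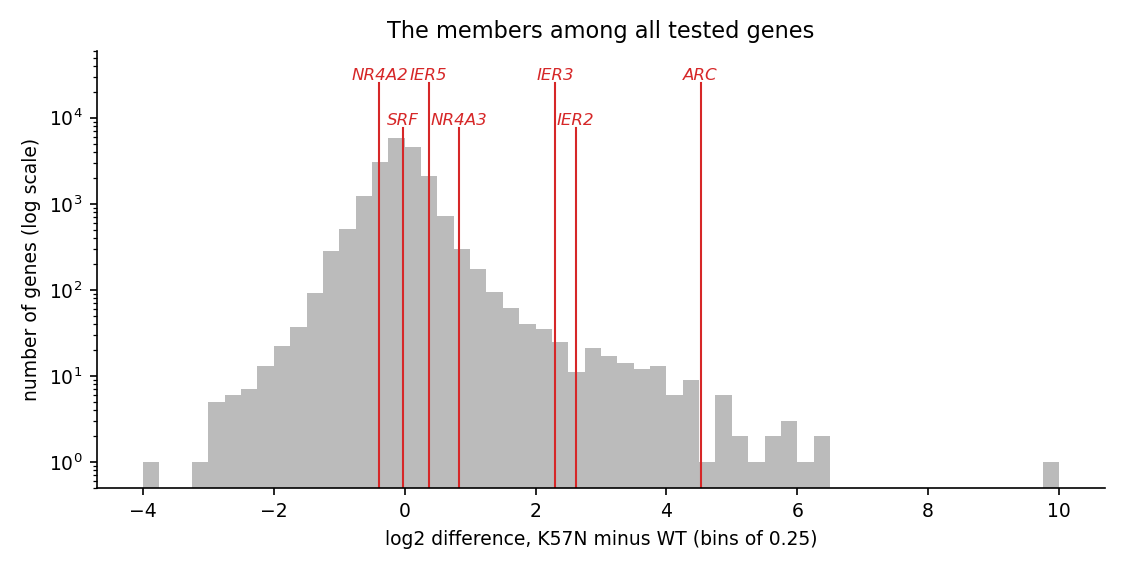
Distribution of the log2 difference between K57N and WT over all tested genes, in bins of 0.25, with the number of genes on a log scale. Red lines mark the 7 tested members. ARC, IER2 and IER3 stand in the upper tail, and SRF, NR4A2 and IER5 lie where most genes do.

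Among 17064 genes that were well above background on all arrays, those that tracked each member most closely over the 9 arrays were found by the root mean square difference, after the WT mean of each gene was subtracted. Nearest to ARC was VGF, a neuropeptide precursor, at 0.20 on the log2 scale, followed by JUNB at 0.31 and C11orf96 at 0.33. TGFB1, which encodes a growth factor, was nearest to IER2 at 0.19, followed by IRX4 and, at 0.27, IER3 itself. DUSP4, a phosphatase that acts on ERK, was nearest to IER3 at 0.15, followed by PAMR1 and TGFB1. MET, the receptor of hepatocyte growth factor, was nearest to NR4A3 at 0.11, followed by TAF4B and MAP3K5. PTTG1IP, LOXL2 and BOLA2B were nearest to IER5, and SPG21, PPIE and MCRIP2 to SRF. For NR4A2 no gene came closer than 0.35, which was reached by a transcript known only by its array name, THC2598321, and TM6SF1 and CFAP77 followed. All of these points share the same 9 arrays, and the likeness is a description without a test.

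The other early genes were counted by list. Of 11 genes of the AP-1 and EGR families, which encode the transcription factors first made after growth factor stimulation, 7 rose in K57N cells against WT, beside 1.52% of all genes, and 0 fell: EGR1 by 5.29, JUNB by 4.39, EGR2 by 4.22, FOSB by 3.79, FOS by 3.47 and FOSL1 by 2.83 on the log2 scale, and EGR3. EGR3 stood well above background only on the K57N arrays, all 3 of them, and its level in K57N cells was at least 7.62-fold that of WT (limma, adjusted p = 0.0017). It entered the test only through the K57N arrays, where it is high, so its call is no independent count, and 6 calls rest on genes measured in all 3 lines. EGR4 entered in the same way, being well above background on no WT array, and was not called without the slide (limma, adjusted p = 0.155) but was with it as a term (adjusted p = 0.000387), which made 8 of 11 beside 2.57% of all genes. JUN, at −0.39, JUND, at −0.05, and FOSL2, at 0.68, did not pass the test. The median of the list was 3.47 in K57N cells and 0.86 in F53S cells, where 0 of the 11 were called and EGR1 differed from WT by 1.46 (limma, adjusted p = 1). The same 7 genes were called in K57N against F53S, beside 0.96% of all genes, but 4 genes were called there without F53S replicate 2 or without F53S replicate 3, and 0 by the methods' t-test with adjusted p.

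Of 25 other immediate early genes, 6 rose in K57N cells against WT, beside 1.52% of all genes, and 0 fell. These were PHLDA1 by 3.08, GADD45B by 2.17, ZFP36, which promotes the decay of mRNA, by 1.97, TRIB1 by 1.68, SGK1 by 1.23 and the transcription factor KLF4 by 1.12. PHLDA1 was well above background on 2 of the 3 WT arrays. With the slide as a term the count was 11, beside 2.57% of all genes, with DUSP1, DUSP2, LIF, PLK3 and PTGS2 added, of which PTGS2 entered the test only through the K57N arrays, being well above background on no WT or F53S array. The count of 6 fell to 2 without WT replicate 2, without WT replicate 3 or without a filter on dim probes. By the methods' t-test with adjusted p it fell to 1. MYC, at 0.30, ATF3, at −0.02, and BTG2, at −0.81, did not pass the test. Against F53S, PHLDA1, GADD45B, ZFP36 and TRIB1 were called in K57N cells, a count of 4 beside 0.96% of all genes that became 0 without F53S replicate 2 or F53S replicate 3, 1 without K57N replicate 2 or K57N replicate 3, and 2 without any other single array. In F53S cells against WT 0 of the 25 were called.

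Of the genes that act with SRF or under it, ELK3 and FHL2 rose and CNN1 and TAGLN fell. Of 5 tested SRF partners, ELK3 rose in K57N cells by 1.11 (limma, adjusted p = 0.0154), 1 call beside 1.52% of all genes. It was well above background on 2 WT and 2 F53S arrays. ELK3 thus entered the test only through the K57N arrays, where it is high, so its call is no independent count. The call was lost without any 1 of the WT or K57N arrays, and without a filter on dim probes. It was also lost with normexp background correction or with each array scaled to its median. Where a signal well above background on all 9 arrays was required, ELK3 was not tested. Of 14 cytoskeletal genes known as targets of SRF, FHL2 rose by 1.07, whereas CNN1 fell by 1.39 and TAGLN by 1.50, which both encode actin-binding proteins of smooth muscle. That is 1 called higher beside 1.52% of all genes and 2 called lower beside 0.742%. The other 11, ACTB at 0.05 among them, did not pass the test, and with normexp background correction or the methods' t-test with adjusted p 0 of the 14 were called, and 1 was without a filter on dim probes, without WT replicate 2 or without any 1 K57N array. TAGLN was also called lower in K57N than in F53S cells (limma, adjusted p = 0.0324), where 0.249% of all genes were called lower. This call was lost without any 1 array other than WT replicate 1, with slide 2 alone and with normexp correction.

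Among 8 genes of the CREB pathway, 0 were called in the fit without the slide. CRTC1, a coactivator of CREB, differed by −1.11 (limma, adjusted p = 0.0788) and was called lower with the slide as a term (adjusted p = 0.0195), where 1.97% of all genes were called lower, and CREB1 differed by −0.94 (adjusted p = 0.557). Of HSF1, on which IER5 is known to act, and 8 of its chaperone targets, 0 were called, with HSPA1A at 1.03 and HSPH1 at 0.93 as the largest differences, and with slide 2 alone 1 was. The retinoid receptors RXRA and RXRB, which pair with some of the NR4A receptors, gave −0.39 and −0.44. Of 5 genes whose products bind ARC, 0 were called, with SH3GL2 at −0.77 and RNF216 at 0.26. In F53S cells against WT, 0 genes of any of these lists were called by limma, with or without the slide as a term, while the methods' t-test with unadjusted p called 3 of the AP-1 and EGR genes and 1 of the other early genes.

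**Figure D4:**
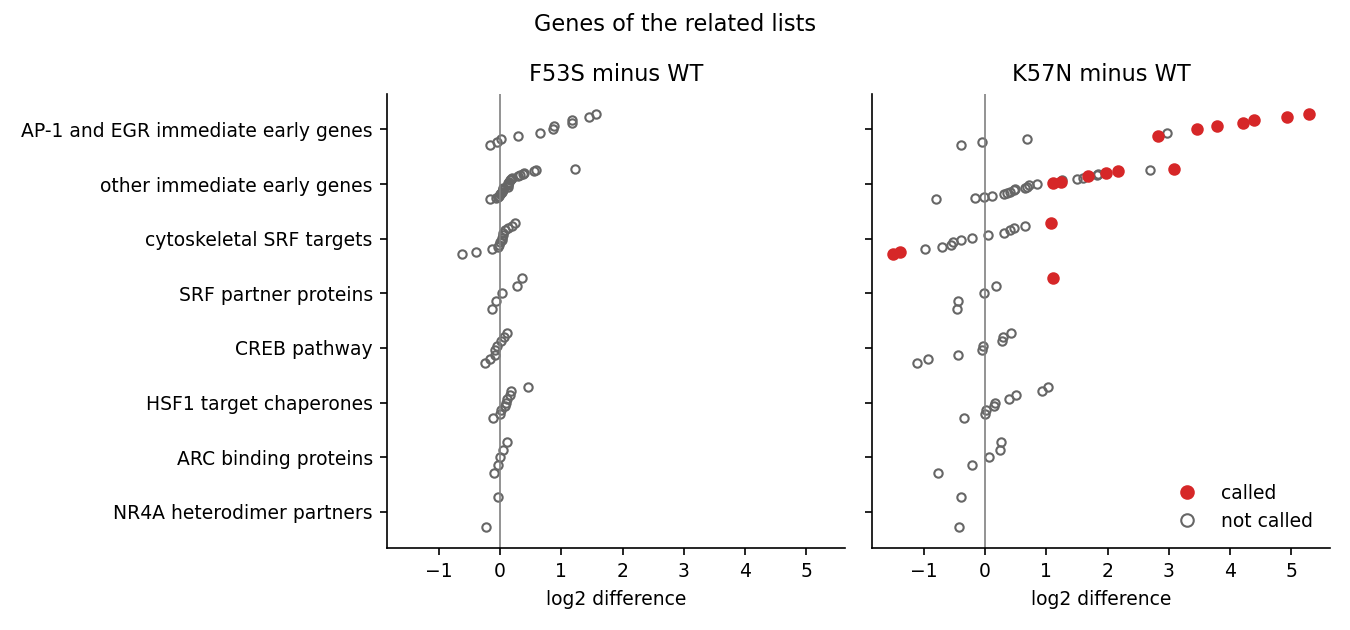
Log2 difference from WT of the tested genes of 8 related lists in F53S cells (left) and K57N cells (right), each point a gene. Filled red points passed an adjusted p of 0.05 and 2-fold in limma, and open points did not. In K57N cells, 7 of the 11 AP-1 and EGR genes and 6 of the 25 other early genes are red, all to the right of 0, and in F53S cells no point is red.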

How the data were processed

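RNA of 9 samples was labeled with 1 dye and hybridized to Agilent human arrays. For every array, the authors deposited the scanner output of Agilent Feature Extraction 10.10.1.1, of which the processed signal was used, an intensity after background subtraction, without scaling between arrays, and a table of log2 values, used here as an alternative, whose normalization is not given in the sources used here and which, once 1 constant was taken off each array, lay within 0.02 of the log2 processed signal for 99.5% to 99.8% of probes. Its columns had medians from −3.85 to −3.41.

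Processed signals were converted to log2 relative to the 75th percentile of the array over non-control spots. Spots marked uneven or outlying were left out, and repeated spots were averaged. Testing required a signal well above background on the 3 arrays of some line, which 25400 probes had, and a gene was represented by its brightest probe. Other genes were named through their RefSeq accession for 29032 probes, and otherwise as on the array. Positions of probes are those of the array annotation on hg19, and those of promoters are of GRCh38.p14. limma 3.58.1 in R 4.3.3 fitted 1 mean per line over 9 arrays, with Benjamini-Hochberg adjustment over all tested probes. The median SE of a log2 difference was 0.29, or 0.14 with the slide as a term, and the number of arrays limits the precision. Where the lower line was not well above background, a bound was computed against its own value or the lowest detected signal of the array, whichever was higher. The procedure was tested on simulated data. Figures were drawn with matplotlib in Python.

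After line means were removed, r across genes between arrays that share a number was 0.35 to 0.88, so the numbers paired the arrays, in part through the slide. The 8 genes and all lists were chosen with earlier results of these data known. The named genes are the 8, MAP2K1, the 3 nearest genes of each and, from the lists, those called or, where none was, the 2 with the largest difference; JUN, JUND, FOSL2, MYC, ATF3, BTG2, ACTB and those called with the slide as a term but not without it were named after their values were seen. The alternatives tried were quantile normalization, scaling to the median, normexp correction (offset 50), other filters, averaging of a gene's probes, fits of 2 lines, the replicate number or the slide as a block, slide 2 alone, the deposited table, the methods' t-test, marked spots kept, and leaving out each array.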

Additional observations from a re-analysis of the deposited data

How the results depend on the processing

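The count of 3 members called higher in K57N against WT was found under 13 of 14 alternatives to the processing, as the same 3 genes, and without any 1 array (lowest 3, highest 3). The methods' t-test with adjusted p gave 1, IER3. In K57N against F53S the count of 3 became 0 without a filter on dim probes, 0 in a fit of the 2 lines alone and 0 with the adjusted p of the methods' t-test, it was 4 with the replicate block and with the slide block, and it ranged from 0 to 3 when 1 array was left out. The cause of these changes was not tested. In F53S against WT, 0 members were called under all 14 alternatives and without any 1 array, and none was called lower in any comparison. The replicate block, with the numbers pairing the arrays, changed no other call of a member, and it raised the count of other immediate early genes from 6 to 11 in K57N against WT and from 4 to 7 in K57N against F53S, that of AP-1 and EGR genes from 7 to 8 in both, and that of CREB pathway genes in K57N against WT from 0 to 1.

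Differences that were never called changed sign in some settings. In K57N against WT, NR4A2 gave 0.0474 with the mean of its probes and from −1.03 to 0.26 when 1 array was left out, being above 0 without WT replicate 3, and SRF gave 0.0103 with the deposited table and from −0.19 to 0.15. In F53S against WT, leaving out 1 array gave from −0.39 to 0.0207 for NR4A3, from −0.15 to 0.33 for IER5 and from −0.0696 to 0.26 for SRF, and in K57N against F53S it gave from −0.28 to 0.0341 for SRF. Over all alternatives, between 2 and 8 of the AP-1 and EGR genes and between 1 and 11 of the other early genes were called in K57N against WT, and between 0 and 8 of each in K57N against F53S. The signal of NR4A1 and of the dimmer NR4A3 probe, near background, limits what can be said of them.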
